A study of Mus musculus with 6 samples.

Results

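Phagocytes kill ingested microbes with reactive oxygen, nitric oxide, itaconate, lysozyme and the withdrawal of metals, and the transcripts of 9 genes of these systems were followed in J774 cells, a mouse macrophage cell line, after depletion of NCOA4. NCOA4 is the cargo receptor that carries ferritin to the lysosome and so releases its iron. The genes were Cybb, Cyba, Ncf1, Ncf4 and Rac2 (subunits of the phagocyte NADPH oxidase), Nos2, Acod1, Lyz2 and Slc11a1. They were chosen by name for their function, but with earlier results of these data known. All 9 were found among the 55487 Ensembl genes of the files. The 2 groups were J774 cells given control siRNA and J774 cells given NCOA4 siRNA, with 3 biological replicates each. All libraries share the cell line and the delivery of small interfering RNA by liposomes, and the labels name no stimulus, time or batch. The design is a knockdown rather than a knockout.

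The phagocyte NADPH oxidase is assembled on demand. Its membrane core, flavocytochrome b558, is made of the catalytic subunit gp91phox (Cybb) and its partner p22phox (Cyba), and on activation it is joined by cytosolic subunits, among them p47phox (Ncf1) and p40phox (Ncf4), and by the GTPase Rac2. The complex passes electrons from NADPH to oxygen and releases superoxide into the phagosome. In macrophages, Nos2 and Acod1 are known as genes that are switched on by lipopolysaccharide and interferon-γ, whereas lysozyme and Slc11a1 are made by resting cells as well. Slc11a1 (NRAMP1) is a transporter that moves iron and manganese out of the phagosome.

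Expression was given as TPM, transcripts per 1000000, that is, reads per base of gene, brought to that total in each library. TPM is a share of all transcripts, and in a culture measured in bulk a lower share of cells that make a transcript cannot be told apart from less transcript per cell. Whole reads rebuilt from TPM and gene length gave between 15740324 and 18565397 reads on genes per library. Ncoa4, the targeted gene, was at 19.7, 22.5 and 22.4 TPM with control siRNA and at 9.63, 8.60 and 8.88 TPM with NCOA4 siRNA, 0.419 times the control mean (adjusted p = 0.00127, limma). The macrophage identity of the cells was checked on 10 marker genes, all of which were expressed. Summed, they stood at 4805 to 4876 TPM with control siRNA and at 4716 to 4773 TPM with NCOA4 siRNA. Of 6 lymphocyte markers, 5 were at 0 in every library, of 5 fibroblast markers 3 were, of 5 dendritic cell markers 1 was, and of 10 neutrophil granule markers 4 were (Mpo, Camp, Ngp and Ly6g). The neutrophil list summed to 133 to 163 TPM with control siRNA and to 143 to 147 TPM with NCOA4 siRNA, nearly all of it Cebpe, a transcription factor gene at 142 and 141 TPM on average, and the dendritic cell list to 1.90 to 2.22 and 2.63 to 3.15 TPM.

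All 9 genes differed between the groups without overlap of any replicate, which was the case for 28.4% of the 13829 genes tested. In 8 genes every NCOA4 siRNA library lay above every control library (16.6% of the genes tested), and in 1 gene, Acod1, every one lay below (11.8%). The changes were small, from 1.08 times the control mean for Rac2 to 1.30 times for Slc11a1 among the genes above 50 TPM. With limma on log2(TPM + 0.5) and Benjamini-Hochberg adjustment over all genes tested, 3 of the 9 rose at an adjusted p under 0.05, namely Ncf4, Slc11a1 and Ncf1, against 5.42% of all genes in either direction, 3.11% higher and 2.31% lower. These 3 lay above 50 TPM. Of all genes with a mean of at least 50 TPM, 8.87% passed in either direction, and their median log2 fold change was -0.0031. None of the 9 passed the further threshold of a 1.5-fold change, which 1.18% of all genes passed in the same test. The count past both thresholds was 0 with limma-voom too. All 9 had an unadjusted p under 0.05 (limma), as had 2982 of the 13829 genes tested. The median log2 fold change of the 9 genes was 0.22, where that of all genes tested was 0.03. For each gene on its own, the exact permutation test on TPM (two-sided) gave p = 0.1, which is as low as 20 arrangements of 3 and 3 libraries can give.

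**Figure D1:**
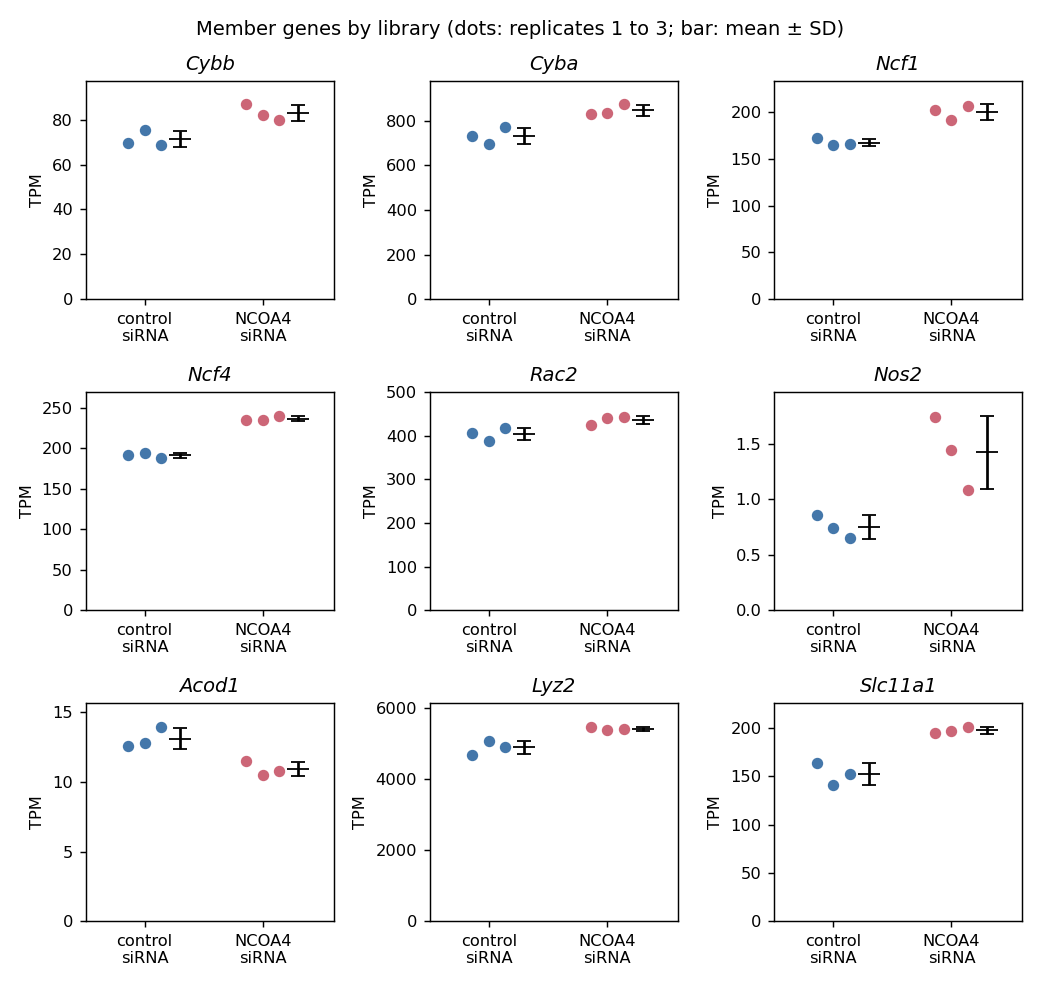
TPM (vertical axes, from 0) of the 9 genes (the member genes) in each library, with control siRNA in blue and NCOA4 siRNA in red, dots for replicates 1 to 3 from left to right and a bar for the mean ± SD (n = 3). The red dots lie above the blue ones in every panel except that of Acod1, where they lie below.

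The 9 genes spanned the whole range of expression. Ordered by mean TPM with control siRNA, which corrects for length, they ran from Lyz2 (4885 TPM) through Cyba (731 TPM), Rac2 (405 TPM), Ncf4 (191 TPM), Ncf1 (168 TPM), Slc11a1 (152 TPM), Cybb (71.3 TPM) and Acod1 (13.1 TPM) to Nos2 (0.752 TPM). Lyz2 was the 13th most abundant of the genes tested and Nos2 ranked 13060. Neighbours in this order had control values that did not overlap. With NCOA4 siRNA the levels of Ncf1 and Slc11a1 overlapped, at 191 to 207 TPM and 194 to 201 TPM.

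The membrane core of the oxidase was made up of a scarce and an abundant transcript. Cybb (ENSMUSG00000015340, minus strand of chromosome X, 9435252 to 9487771, GRCm38) encodes the subunit that carries the haem groups and the flavin. In the order of replicates 1 to 3, its TPM was 69.5, 75.5 and 68.9 with control siRNA, and 86.8, 82.0 and 80.0 after the knockdown, resting on 2086 to 2928 reads per library. The groups did not overlap, but the gap between them was narrower than the range within either. The mean was 71.3 ± 3.63 and 83.0 ± 3.48 TPM (SD, n = 3 each), with a log2 fold change of 0.22 (standard error 0.0532) that missed the threshold (adjusted p = 0.0684, limma). Cyba (ENSMUSG00000006519, minus strand of chromosome 8, 122424776 to 122432930) encodes the subunit without which gp91phox is not stable. It was at 730, 695 and 770 TPM with control siRNA and at 829, 837 and 873 TPM with NCOA4 siRNA. Its log2 fold change of 0.21 (SE 0.0499, adjusted p = 0.0618, limma) was close to that of Cybb, with 95% intervals of 0.09 to 0.33 for Cyba and 0.09 to 0.34 for Cybb. The ratio of Cybb to Cyba TPM in the same library was 0.0978 ± 0.00984 in the control group and 0.0981 ± 0.00656 after the knockdown (SD, n = 3 each; exact two-sided permutation test, p = 1.0).

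The cytosolic subunit genes Ncf1 and Ncf4 both rose. Ncf4 (ENSMUSG00000071715, plus strand of chromosome 15, 78244801 to 78262580), whose product p40phox binds a phagosomal lipid, had the most even values of the 9. They were 192, 194 and 188 TPM with control siRNA and 235, 235 and 240 TPM with NCOA4 siRNA. The gap between the groups was wider than the range within each. The mean rose from 191 ± 3.02 to 237 ± 3.28 TPM (SD, n = 3 each), and limma gave a log2 fold change of 0.31 ± 0.0340 (SE, adjusted p = 0.00660). With 1 library left out the call was lost in 1 case, without NCOA4 siRNA replicate 2 (adjusted p = 0.0512, limma). The call was also lost with a block for replicate number (adjusted p = 0.0530, limma). Ncf1 (ENSMUSG00000015950, minus strand of chromosome 5, 134220053 to 134229625), the organizer that bridges the cytosolic subunits to p22phox, was at 172, 165 and 166 TPM with control siRNA and at 203, 191 and 207 TPM with NCOA4 siRNA. It rose from 168 ± 3.88 to 200 ± 8.13 TPM (SD, n = 3 each), and limma gave a log2 fold change of 0.26 ± 0.0432 (SE, adjusted p = 0.0232). This call was lost when any one library other than control replicate 1 was left out (adjusted p 0.0611 to 0.113). It was also lost with median centring (0.0642), without a trend in eBayes (0.0698) and with a block for replicate number (0.0781).

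Between Ncf1 and Ncf4 the ratio was 0.878 ± 0.0231 and 0.847 ± 0.0278 (SD, n = 3 each; exact two-sided permutation test, p = 0.3), with overlapping groups. These ratios are formed within a library and do not depend on the scaling between libraries.

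**Figure D2:**
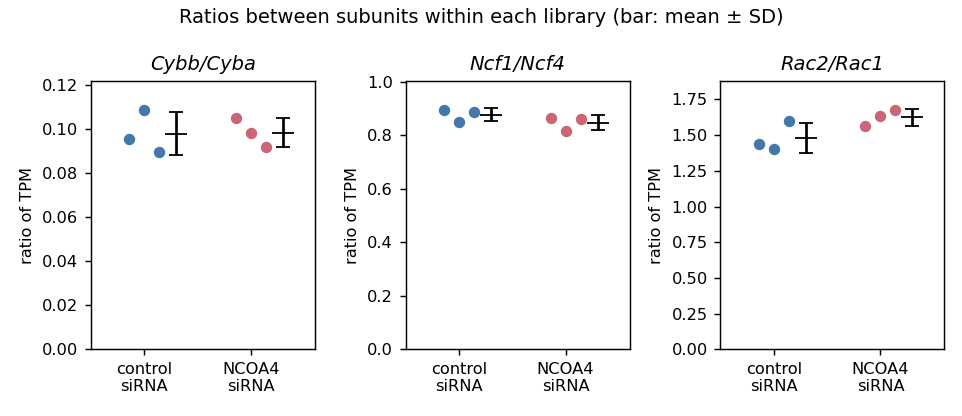
Ratio of TPM between oxidase subunits within each library (vertical axes, from 0, no unit), with control siRNA in blue, NCOA4 siRNA in red and bars for the mean ± SD (n = 3). The groups overlap in all 3 panels, that is, for Cybb to Cyba, Ncf1 to Ncf4 and Rac2 to Rac1.

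Rac2 (ENSMUSG00000033220, minus strand of chromosome 15, 78559167 to 78572783), the haematopoietic Rac GTPase of the complex, had the smallest difference of the 5 oxidase genes. Its TPM was 408, 388 and 417 with control siRNA and 425, 442 and 443 with NCOA4 siRNA, and the gap between the groups was narrower than the SD of either. The log2 fold change was 0.11 (SE 0.0419, 95% interval 0.01 to 0.21, adjusted p = 0.189, limma), and it was 0.05 with median centring (adjusted p = 0.581). Rac1, the Rac protein found in all tissues, was at 261 to 284 TPM with control siRNA and at 264 to 272 TPM with NCOA4 siRNA, and its interval was -0.13 to 0.08. The ratio of Rac2 to Rac1 was 1.48 ± 0.107 and 1.62 ± 0.0573 (SD, n = 3 each) with overlapping groups (exact two-sided permutation test, p = 0.2). Summed over the 5 oxidase genes, TPM was 1571, 1517 and 1611 with control siRNA and 1778, 1787 and 1844 with NCOA4 siRNA, 1.15 times the control mean (exact two-sided permutation test, p = 0.1, adjusted 0.3 over 6 ratios). Cyba was the largest term of that sum in every library.

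The other genes that load, switch on or serve the oxidase mostly stayed below the threshold. Of 18 such partners, 16 were expressed above 0.5 TPM, 11 with a higher and 5 with a lower mean. Of these, 1 rose, Prkcd, a protein kinase C isoform that phosphorylates p47phox. It went from 93.3 ± 3.03 to 118.5 ± 4.0 TPM (SD, n = 3 each), and limma gave a log2 fold change of 0.34 ± 0.0440 (SE, adjusted p = 0.00968), and its call was lost without NCOA4 siRNA replicate 1 (0.0623) or replicate 3 (0.0562). Cybc1, the chaperone of the gp91phox and p22phox pair, had a log2 fold change of 0.13 with an interval of -0.01 to 0.26. The exchange factors Vav1, Vav3, Prex1 and Dock2 lay at 0.09, 0.03, 0.04 and 0.07, with Vav3 below 0 under median centring, quantile normalization and without control replicate 1 and Prex1 below 0 under median centring. Rap1a, Cdc42, Pak2 and Pik3c3 lay at 0.07, 0.07, 0.09 and 0.08 and Prkcb at -0.05. None of these passed, and leaving out 1 library could move each by more than 1.5 times. Without control replicate 1, Cdc42 lay at 0.0024, Pak2 at 0.0168 and Rap1a at 0.026. Without NCOA4 siRNA replicate 3, Pik3c3 lay at 0.0228, and without control replicate 2, Prkcb lay at -0.0108. The inhibitors Arhgdia and Arhgdib, which hold Rac in the cytosol, lay at -0.11 and -0.02, the latter turning to 0.04 without control replicate 1, and the phospholipase Pla2g4a at -0.13. Hvcn1, the proton channel that balances the charge moved by the oxidase in many phagocytes, had only 6 to 11 reads per library, and Pak1 had 0 to 5. The median of the 16 partners was 0.07.

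**Figure D3:**
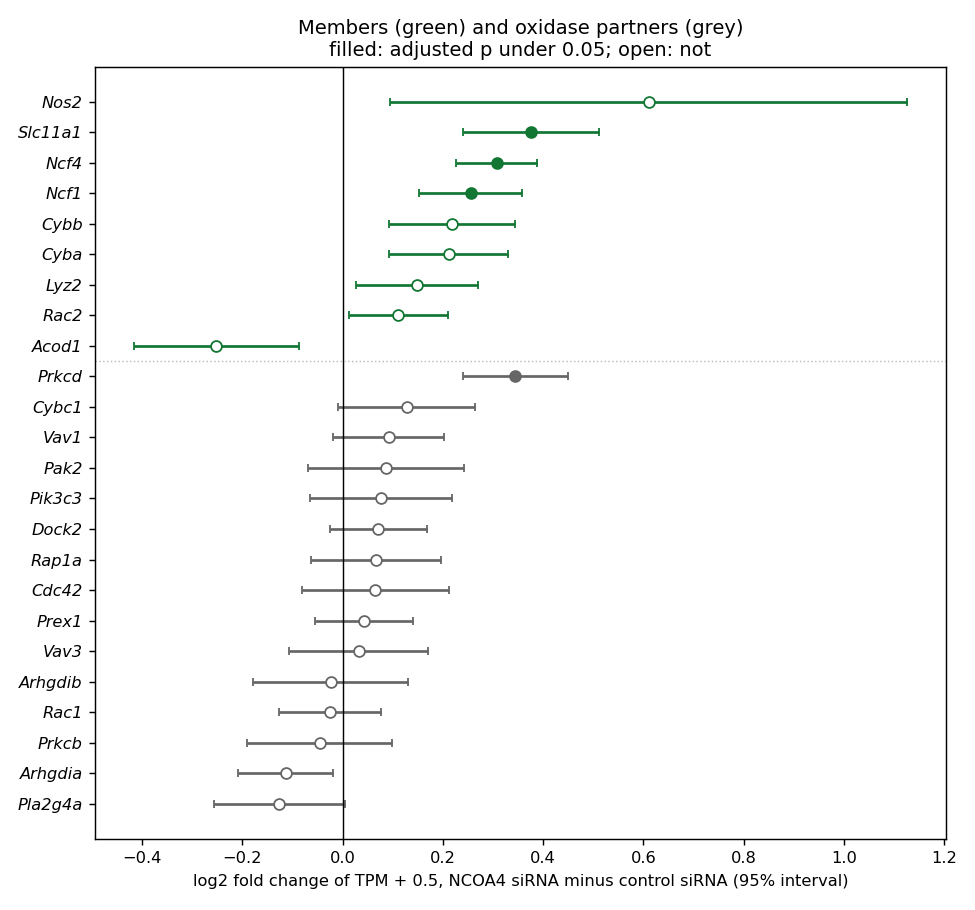
Log2 fold change of TPM + 0.5 between NCOA4 siRNA and control siRNA (horizontal axis) with its 95% interval from limma for the 9 genes (green) and 15 of the 16 tested oxidase partners (grey), filled where the adjusted p was under 0.05. Filled symbols are Slc11a1, Ncf4, Ncf1 and, among the partners, Prkcd, and the interval of Nos2 is the widest.

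Slc11a1 (ENSMUSG00000026177, plus strand of chromosome 1, 74375195 to 74386062) had the largest change of the abundant genes. Its TPM was 164, 141 and 152 with control siRNA and 194, 197 and 201 with NCOA4 siRNA, from 2939 to 4494 reads. The control libraries were more spread than the NCOA4 siRNA libraries. The mean rose from 152 ± 11.2 to 197 ± 3.46 TPM (SD, n = 3 each), and limma gave a log2 fold change of 0.38 ± 0.0572 (SE, adjusted p = 0.0175). The fold change stayed between 0.32 and 0.43 over 15 alternatives, but the adjusted p was above 0.05 without control replicate 3 (0.0553), without NCOA4 siRNA replicate 1, 2 or 3 (0.0819, 0.0893 and 0.0858) and without a trend in eBayes (0.0547). Of 12 other genes of phagosomal and cellular metal transport, 11 were tested, and 2 passed. The iron exporter ferroportin, Slc40a1, rose from 13.5 ± 0.859 to 18.5 ± 0.264 TPM, and the zinc and iron importer Slc39a14 fell from 30.01 ± 0.787 to 25.6 ± 0.125 TPM (SD, n = 3 each), with adjusted p-values of 0.0133 and 0.0348 (limma). Neither passed once any one NCOA4 siRNA library was left out (adjusted p 0.0665 to 0.140), nor did Slc39a14 without control replicate 2 or 3 (0.0743 and 0.0839).

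Lyz2 (ENSMUSG00000069516, minus strand of chromosome 10, 117277331 to 117282321), which encodes the lysozyme of macrophages, an enzyme that cuts bacterial cell walls, was at 4683, 5067 and 4904 TPM with control siRNA and at 5466, 5364 and 5398 TPM with NCOA4 siRNA. The groups were apart, and the control libraries were the more spread. The log2 fold change was 0.15 (SE 0.0513, 95% interval 0.03 to 0.27, adjusted p = 0.161, limma; 0.09 with median centring), although each value rested on 33643 to 42869 reads. The error in eBayes also draws on the spread of other genes, and it changed with the setting. The SE was 0.1005 without the filter on low TPM and 0.0361 with limma-voom, where Lyz2 passed (adjusted p = 0.0120). Lyz1, the neighbouring gene for the lysozyme of Paneth cells, has a coding sequence identical to that of Lyz2 at 422 of 444 bases, with an unbroken match of 118 bases, so reads could be split between both. It had 7 to 20 reads per library. No other gene in GENCODE M21 shared 50 bases in a row with the coding sequence of any of the 9. Overlap of their exons with those of other genes was not tested. Of 20 antimicrobial and lysosomal protein genes, 13 were tested, and 2 passed, both lower. The proteases Ctsl (cathepsin L) and Ctsb (cathepsin B) both fell, Ctsl from a mean of 821 ± 27.3 to one of 652 ± 3.16 TPM and Ctsb from 1358 ± 60.0 to 1151 ± 18.1 (SD, n = 3 each), with adjusted p-values of 0.00751 and 0.0337 (limma). Neither passed with any one NCOA4 siRNA library left out (adjusted p 0.0521 to 0.150), nor did Ctsb without control replicate 2 or 3 (0.0630 and 0.0631).

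Nos2 and Acod1 stood below the oxidase genes in level. Nos2 (ENSMUSG00000020826, plus strand of chromosome 11, 78920787 to 78960254), the inducible nitric oxide synthase, was barely expressed. Its reads numbered 22, 20 and 15 in the control libraries and 45, 35 and 29 after the knockdown, or 0.863, 0.743 and 0.648 TPM and 1.75, 1.45 and 1.08 TPM. The groups did not overlap, and the knockdown libraries were the more spread. The mean of 1.42 ± 0.332 TPM was 1.90 times that of 0.752 ± 0.108 TPM (SD, n = 3 each), while the log2 fold change on the scale of TPM + 0.5, which understates low genes, was 0.61 (SE 0.217, 95% interval 0.09 to 1.13, adjusted p = 0.170, limma). The fold change moved between 0.46 and 0.89 over the alternatives, and none of them put Nos2 past the threshold (lowest adjusted p = 0.0542, limma-voom). For the reads of Nos2 a gene length of 4439 bases was used, the smallest that made all 6 values whole, because the annotated exon length did not make them so.

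Of 16 genes for nitric oxide and arginine metabolism, 13 were tested, 4 with a higher and 9 with a lower mean. The one that passed was Ass1, argininosuccinate synthase, which rebuilds arginine from citrulline, and it fell from 29.2 ± 0.227 to 23.5 ± 0.964 TPM (SD, n = 3 each), and limma gave a log2 fold change of -0.31 ± 0.0490 (SE, adjusted p = 0.0194). This call was lost with each library other than control replicate 1 left out (adjusted p 0.0516 to 0.0870). Arg1, arginase 1, which splits arginine and is a mark of alternative activation, was at 306 ± 35.7 and 339 ± 21.3 TPM (SD, n = 3 each) with overlapping groups, far above Nos2 in every library. Arg2 had 0 to 3 reads per library, so that no ratio to Nos2 is given.

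Acod1 (ENSMUSG00000022126, plus strand of chromosome 14, 103046977 to 103056573) encodes the mitochondrial enzyme that makes itaconate from cis-aconitate. It was the only one of the 9 genes that was lower. Its TPM was 12.6, 12.8 and 13.97 with control siRNA and 11.5, 10.5 and 10.8 with NCOA4 siRNA, from 150 to 203 reads. The mean was 13.1 ± 0.740 and 10.9 ± 0.507 TPM (SD, n = 3 each), 0.833 times control, and the log2 fold change was -0.25 (SE 0.0691, 95% interval -0.42 to -0.09), which missed the threshold (adjusted p = 0.0920, limma). With median centring and with quantile normalization it passed, at adjusted p-values of 0.0371 and 0.0446. Of 17 genes around its substrate, such as citrate synthase (Cs), the aconitase Aco1 and the succinate dehydrogenase subunits, all were tested, 8 were higher and 9 lower, and 0 passed (limma; 5 at an unadjusted p under 0.05, and 2 with limma-voom). Their median log2 fold change was -0.01.

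Among the regulators of these genes, 1 rose and 1 fell. Of 18 transcription factor genes, all tested, 2 passed. Irf1, an interferon-induced activator of Nos2, was at 15.1, 15.6 and 14.6 TPM with control siRNA and at 20.8, 22.2 and 23.7 TPM with NCOA4 siRNA, a log2 fold change of 0.54 (SE 0.0645, adjusted p = 0.00776, limma; 0.0548 without NCOA4 siRNA replicate 2). Hif1a, which drives Nos2 and glycolysis under low oxygen, fell from 73.6 ± 4.45 to 59.1 ± 3.17 TPM (SD, n = 3 each), and limma gave a log2 fold change of -0.31 ± 0.0616 (SE, adjusted p = 0.0361), and no longer passed with any one library left out (adjusted p 0.0515 to 0.126). Spi1 (PU.1) and Irf8, which drive the oxidase genes in myeloid cells, were at 192 to 221 and 68.6 to 74.9 TPM with control siRNA and at 213 to 225 and 65.1 to 66.0 TPM after the knockdown, and did not pass (adjusted p = 0.643 and 0.142, limma). Of 13 interferon-inducible GTPase genes found, 3 were above 0.5 TPM and 3 were at 0 in every library. Their sum was 13.7 to 17.2 TPM with control siRNA and 16.7 to 21.2 TPM with NCOA4 siRNA, with overlapping groups.

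**Figure D4:**
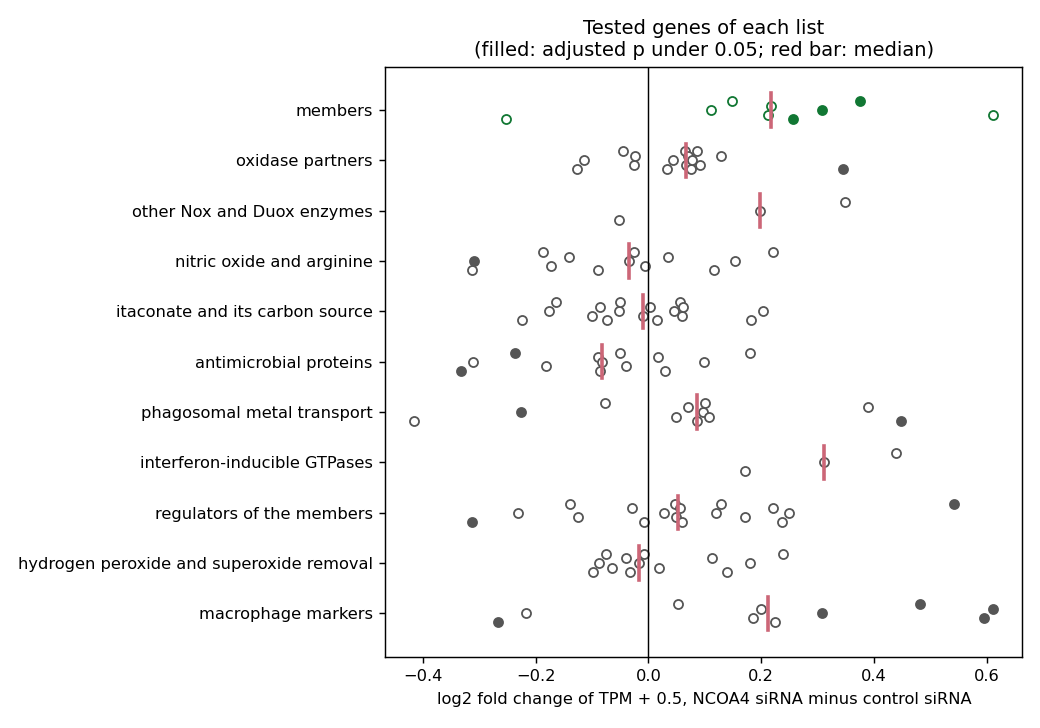
Log2 fold change of TPM + 0.5 (horizontal axis) of every tested gene of the lists named in the text (rows), filled where the adjusted p from limma was under 0.05, with a red bar at the median of each list. The medians of the 9 genes and of the macrophage markers lie at 0.22 and 0.21, and those of the oxidase partners, the itaconate genes and the peroxide-removing enzymes at 0.07, -0.01 and -0.02.

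Enzymes that remove superoxide and hydrogen peroxide gave 5 higher and 8 lower genes of 13 tested, and 0 passed (limma; 1 at an unadjusted p under 0.05, and 1 with limma-voom). Over all 9 lists of related genes, 8 of 107 tested genes passed (7.48%, against 5.42% of all genes and 8.87% of those with a mean of at least 50 TPM). Markers of macrophages differed between the groups as well. Of 10, 5 passed, 4 higher and 1 lower, with a median log2 fold change of 0.21. The F4/80 gene Adgre1, the CSF1 receptor gene Csf1r, the Fcγ receptor gene Fcgr1 and the efferocytosis receptor gene Mertk rose with log2 fold changes of 0.61, 0.31, 0.59 and 0.48, and the lipopolysaccharide co-receptor gene Cd14 fell by 0.27 on the log2 scale (adjusted p 0.00436 to 0.0361, limma). Of these, Fcgr1 passed whichever library was left out, and the other four lost the call when any NCOA4 siRNA library was left out (adjusted p 0.0560 to 0.158), and Cd14 also without control replicate 2 or 3 (0.0898 and 0.0871). Cd68 was at 1832 ± 198 and 1570 ± 55.7 TPM (SD, n = 3 each) and did not pass. The part of these markers in the changes of the 9 genes was not tested. Of the neutrophil granule genes, Prtn3 had 6 to 17 reads per control library and 26 to 32 per knockdown library (adjusted p = 0.0527, limma).

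The promoters of Cybb, Cyba, Ncf1, Acod1, Lyz2 and Slc11a1, from 250 bases before to 50 bases after the RefSeq start (GRCm38.p6), were searched on both strands for motifs of factors that act on phagocyte genes. Ncf4, Rac2 and Nos2 were not searched. The interferon-stimulated response element (ISRE), searched as GAAA, any 2 bases and GAAA, was found in 2 of the 6 promoters and in 3.44% of all 32851, and the gamma-activated site (GAS), written TTCNNNGAA, in 1 of the 6 and in 8.30% of all. The window around the Ncf1 matches (chr5:134229691-134229720, minus strand) and the Cybb match nearest its start (chrX:9469334-9469363, minus strand) are shown because Irf1 rose and its product binds such ISREs, with the matches in capitals. In Ncf1 the GAS and the ISRE overlap and span bases -88 to -73 from the start, and in Cybb the ISRE begins at base -29.
Ncf1: tcaaaaaTTCTCAGAAAGTGAAAgactaag
Cybb: tctgataataGAAAAGGAAAcctattgccc
Further ISRE matches on the opposite strand of Cybb begin at bases -168 and -124. The PU.1 core GAGGAA was in 3 of the 6 promoters (28.3% of all), the κB pattern (GGGA, any 4 bases and CC) in 4 (20.7% of all) and TTGCNNAA (C/EBP), CACGTG (E-box), CATGTG (M-box) and the CLEAR element, an E-box with GT before and AC after it, in 0, against 10.8%, 7.15%, 14.2% and 0.326% of all. The PU.1 core of Slc11a1 (chr1:74375039-74375068, plus strand) begins at base -152, and that of Acod1 (chr14:103046792-103046821, plus strand), the gene that was lower, at base -208.
Slc11a1: gggtatccaggaGAGGAAcgaaggtcaaaa
Acod1: tcttatgtctgtGAGGAAtcatcagattat
Slc11a1 had no ISRE match. These matches describe letters in the windows, and binding was not measured. The part of Irf1 in the changes of these genes was not tested.

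No alternative turned the sign of any of the 9 genes, in 134 values (Nos2 could not be tested at a minimum mean of 5 TPM). For most alternatives this was fixed in advance. The groups did not overlap, so leaving out a library or changing the pseudocount could not turn a sign. Filter, trend and block settings left the fold change as it was. Only median centring, quantile normalization and limma-voom could have turned a sign, and none did. Ncf4 was called in 13 of 15 alternatives, Slc11a1 in 9 and Ncf1 in 7, Cyba in 3, Acod1 in 2, Cybb and Lyz2 in 1 each (limma-voom), and Rac2 and Nos2 in 0. The number of the 9 that passed was 6 with limma-voom on the rebuilt reads. It was 2 without control replicate 2, 1 without control replicate 3 or NCOA4 siRNA replicate 1 or 3, and 0 without NCOA4 siRNA replicate 2. With a block for replicate number it was 0 as well.

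**Figure D5:**
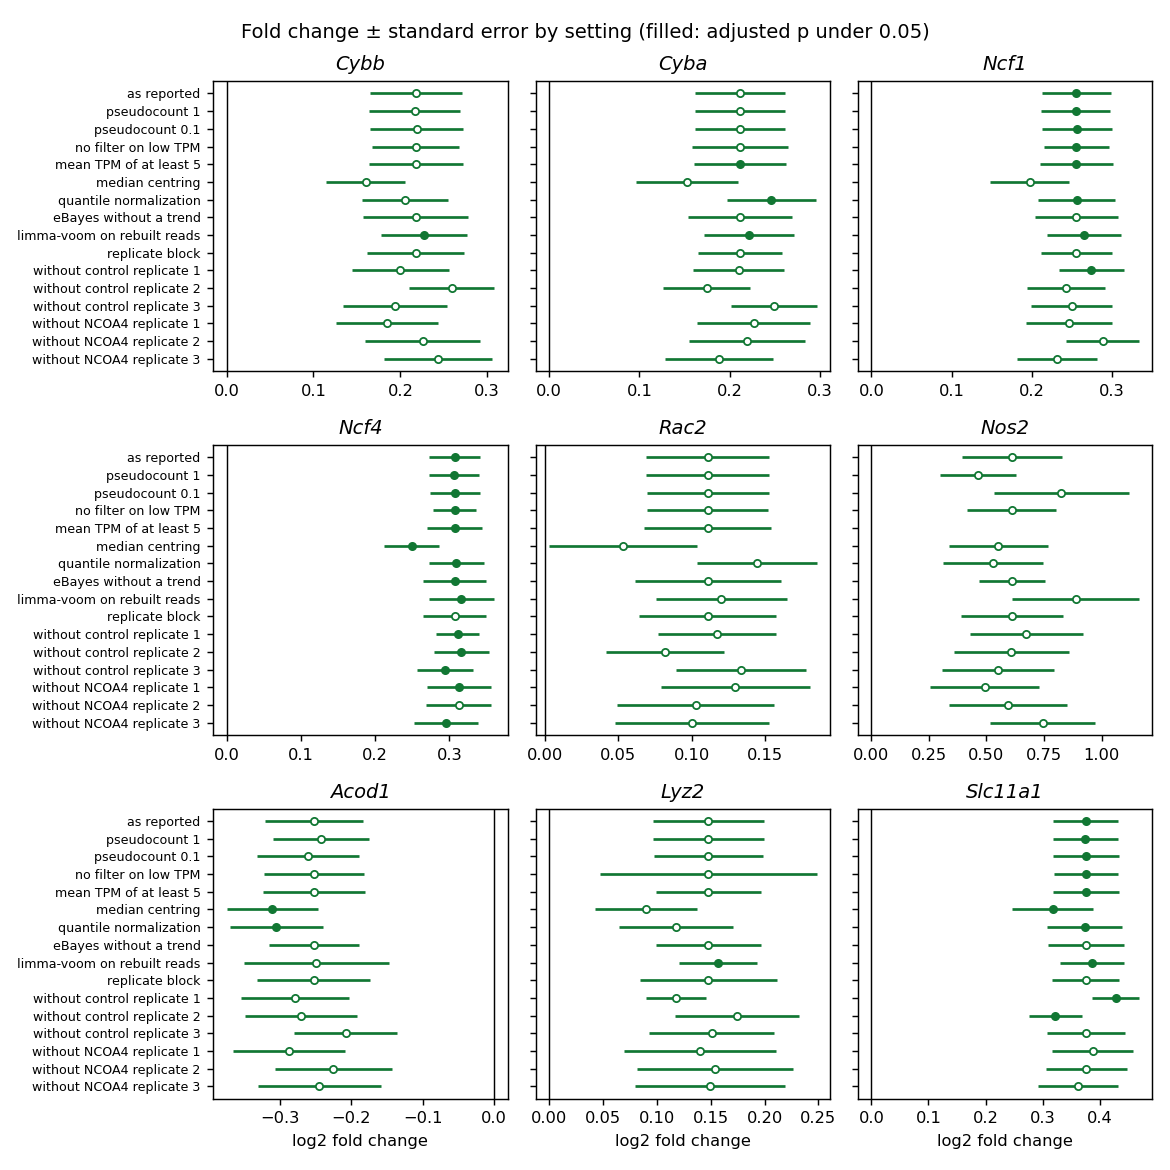
Log2 fold change (horizontal axes) ± standard error of the 9 genes under each setting (rows), filled where the adjusted p was under 0.05. All points of a gene lie on the same side of 0, and filled points are most frequent for Ncf4.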

How the data were processed

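Poly(A)-selected, stranded libraries of 6 J774 cultures were sequenced. The submitters' processing notes name Trimmomatic (version 0.33), HISAT2 (version 2.1.0), featureCounts, edgeR and the build mm10. The authors deposited TPM per Ensembl gene and library, without scaling between libraries. The annotation they used is not given in the sources used here. Symbols, positions and exon lengths were taken from GENCODE M21 (GRCm38), which held 55227 of the 55487 identifiers. Promoter sequences came from RefSeq (GRCm38.p6).

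For depth and for an alternative test, TPM was turned back into reads with the gene's length. With annotated lengths, 98.4% of 21096 expressed genes gave whole reads in all 6 libraries within 0.01 reads, and 337 took the smallest length that did so. They amount to 15740324 to 18565397 reads per library. Genes whose TPM averaged 0.5 or more went into limma (3.58.1, in R 4.3.3; lmFit and eBayes with a trend) as log2(TPM + 0.5), and p-values were adjusted by Benjamini-Hochberg over 13829 genes. Single values were compared with exact two-sided permutation tests. Intervals are 95%, and p-values measure only the spread between these cultures.

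The 9 genes and the lists of related genes were chosen with earlier results of these data known. Named were the 9 genes, Ncoa4, Lyz1, all oxidase partners, members of the other lists that passed (up to 4 with the smallest adjusted p) and genes of nearest profile. Genes given beyond these were chosen after their values were seen. The alternatives were 15, among them each library left out in turn. A few genes of these lists are not reported here.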

Additional observations from a re-analysis of the deposited data

How the results depend on the processing

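The direction of the 9 genes was the same in all 134 alternative values, 14 for Nos2, which falls below a minimum mean of 5 TPM, and 15 for each other gene. Of these alternatives, only median centring, quantile normalization and limma-voom could have turned a sign. Ncoa4 kept its call in 15 alternatives. The number of all genes at an adjusted p under 0.05 was 750, and it was 499 without the filter on low TPM, 404 without a trend in eBayes, 1499 with limma-voom and 127 to 807 with 1 library left out. Of the 9 genes, 3 passed, 5 with quantile normalization, 1 without a trend, 6 with limma-voom and 0 to 3 with 1 library left out. Of the related genes 8 passed, 5 without a trend, 15 with limma-voom and 1 to 8 with 1 library left out. Genes that also passed the 1.5-fold threshold numbered 163, and 86, 77 and 98 without NCOA4 siRNA replicate 1, 2 or 3. The share of passing genes that were higher was 57.3%, and 35.9% with median centring. Labels give both groups replicate numbers 1 to 3. Deviations of same-numbered libraries from their group means correlated at 0.0283, -0.0185 and 0.0229 across genes, and 4 of 6 libraries correlated best with their own number. These values do not decide whether the numbers mark pairs, and the fit reported above did not take them as pairs. A replicate block gave 161 genes, 87 of them past 1.5-fold, and 0 of the 9 genes and 0 of the related genes (limma; 7 and 22 at an unadjusted p under 0.05). Of 420 alternative fold changes of other named genes, 7 turned sign, all of genes that did not pass. These were Prex1 (-0.0153 with median centring), Vav3 (-0.0258 and -0.0204 with median centring and quantile normalization), Rac1 (0.0056 with quantile normalization) and, without control replicate 1, Vav3, Rac1 and Arhgdib. With 1 library left out Vav3 ranged from -0.0109 to 0.0622, Rac1 from -0.0605 to 0.00072 and Arhgdib from -0.0724 to 0.0447. No ratio moved by more than its spread with 1 library left out. Depth limits Nos2, at 15 to 45 reads.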

Other observations

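For the 3 genes with the widest range over the 6 libraries, the genes of most similar profile were sought by the root-mean-square difference of their mean-centred log2(TPM + 0.5) values over 10038 genes whose TPM averaged 5 or more. For Slc11a1 the nearest was Arhgap35, at 0.0216 log2 units. For Acod1 they were Ube2o and Akirin1, at 0.0206 and 0.0249. For Nos2, whose profile is set by few reads, they were the unnamed gene model Gm7600 and Tnfrsf9, at 0.0881 and 0.0938.

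Oxidases other than that of phagocytes were close to silent. Of 10 genes of the Nox and Duox families and their partners, 4 were at 0 in every library and 3 reached a mean of 0.5 TPM, and their sum was 2.31 to 4.45 TPM with control siRNA and 3.73 to 4.40 TPM with NCOA4 siRNA.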
